A study of Mus musculus with 4 samples.

Results

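The genes described here encode the constitutive subunits of the mouse proteasome, the proteins that help to build it, and its less studied activators and inhibitor. They are the 42 genes of 55536 annotated genes (22028 of them protein coding) whose symbol starts with Psm, a letter from a to g and a number, and which have at least 1 protein-coding transcript. Psmb5 to Psmb10, Psme1 and Psme2, which encode the catalytic subunits and an interferon-induced activator, were left out, as were symbols marked as pseudogenes. By letter they comprise 8 Psma, 5 Psmb, 7 Psmc, 14 Psmd, 3 Psme, 1 Psmf and 4 Psmg genes. By role, 28 are structural subunits: 7 of the alpha ring, 4 of the beta ring, 6 Rpt ATPases and 11 Rpn subunits. A further 7 are assembly chaperones, 3 are activators or an inhibitor, and 2 are paralogs known from testis and thymus. The other 2 were placed in none of these roles. Psme2b is a copy of Psme2. Psmc3ip shares the naming pattern only, being a meiotic recombination factor that is not a proteasome protein.

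All 4 libraries were of 1 group, labelled biological replicates 1 to 4. They were made from bone-marrow-derived macrophages of strain C57BL/6J, phagocytes that grow out of marrow precursors in culture. The cells were exposed to 100 ng/ml lipid A, the part of bacterial endotoxin that Toll-like receptor 4 recognises, for 12 h, left for 12 h after washing, and exposed to 100 ng/ml lipid A for another 15 min. RNA came from the cytosolic fraction and was depleted of ribosomal RNA. The labels give no sex or age, and they name 1 donor record for all 4 libraries with a separate sample record for each. Nothing states that the cultures were separate, so the p-values below rest on the spread between these libraries, which may be technical. The fits shared that spread between genes, in part or wholly. There is no untreated library here and no value is a response to lipid A.

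The proteasome is the main protease for proteins tagged with ubiquitin in the cytosol and nucleus. Its core particle is a barrel in which outer rings of alpha subunits gate the entrance and inner rings of beta subunits hold the proteolytic sites. The regulatory particle on its ends recognises ubiquitin chains, removes them, and unfolds the substrate with a ring of ATPases. Core and regulatory particle are put together with the help of chaperones that leave the finished complex. In macrophages the proteasome also makes peptides for antigen presentation and degrades the inhibitors of NF-kB.

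The libraries held 30660511 to 48223718 expected counts. Levels are given as TPM, a length-corrected share of all transcripts in the library. The signal recognition particle RNA genes Rn7s1 and Rn7s2 alone took 55.9% to 65.6% of TPM, and protein-coding genes took 25.3% in replicate 2 and 36.6% in replicate 4. All 8 macrophage markers lay above 1 TPM, with a summed level of 4019 to 6175 TPM. Of 20 markers of other blood and stromal cells, 6 had enough counts to be tested and none lay above it; their summed level was 0.77 to 1.89 TPM, most of it from the neutrophil granule gene Ngp (0.71 ± 0.383 TPM). Klrb1c, Hbb-bt and Mcpt4 were listed at 0 in each library. The nuclear RNA Malat1 was at 55.7, 719, 416 and 295 TPM in replicates 1 to 4.

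Of the 42 genes, 39 lay above 1 TPM (limma on log2(TPM + 0.1), one-sided, Benjamini-Hochberg adjusted p below 0.05). Among all 16262 genes with at least 10 summed counts, 58.2% did. Psma8 and Psmc3ip did not, and Psmb11 had too few counts to be tested. Together the 42 genes held 1627, 1185, 1421 and 1689 TPM in replicates 1 to 4, which was 0.461% to 0.513% of the TPM of protein-coding genes. The median structural subunit stood at 48.3, 34.8, 43.3 and 49.8 TPM in the 4 libraries, against a median of 4.11 to 5.51 TPM over the 12636 protein-coding genes tested.

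**Figure D1:**
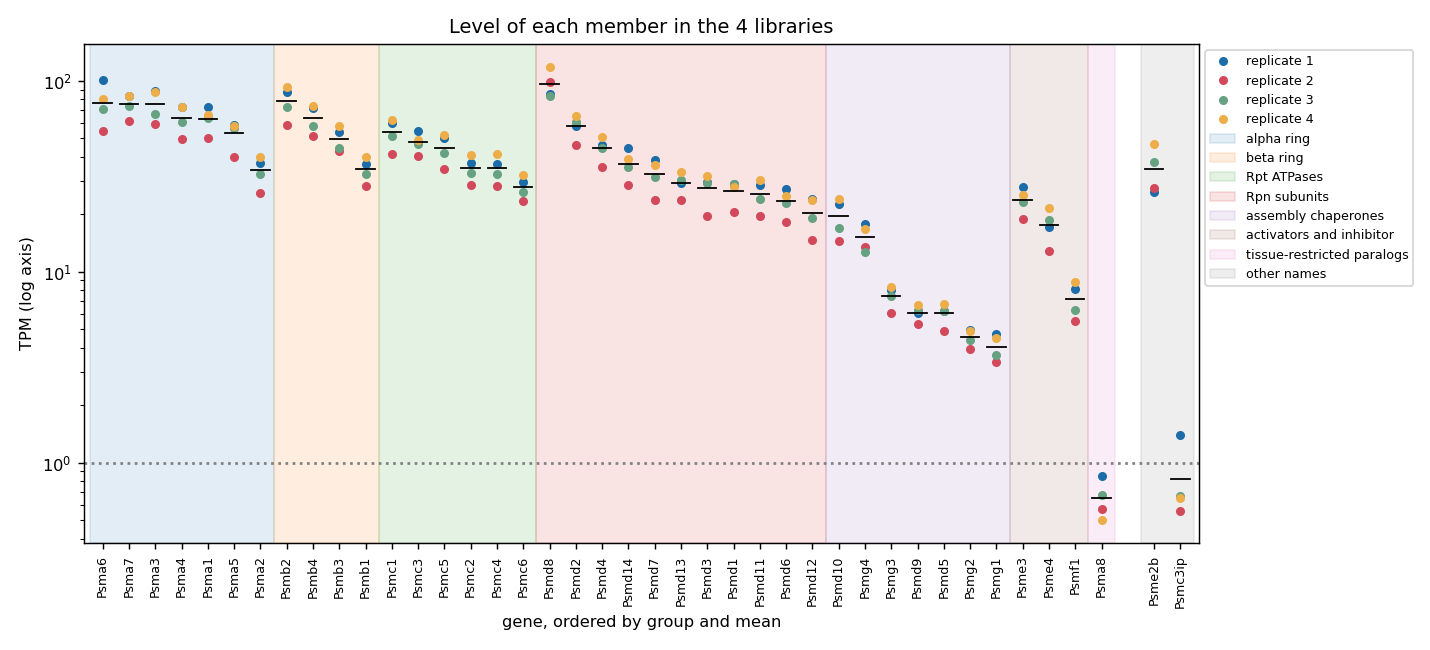
Each point is the level of a gene in 1 of 4 libraries (TPM, log axis), and each bar is the mean; genes are ordered by role and then by level, and the dotted line marks 1 TPM. Psmb11, at 0 TPM, is left out. The structural subunits lie between about 14.6 TPM (Psmd12 in replicate 2) and 119 TPM (Psmd8 in replicate 4), and most assembly chaperones lie lower.

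The alpha ring subunits form the outer rings of the core and carry the gate through which substrates enter. Psma6 (the alpha1 subunit) was at 101, 54.8, 71.3 and 80.5 TPM in replicates 1 to 4. Psma7 (alpha4) was at 83.6, 61.8, 73.8 and 82.9 TPM, and Psma3 (alpha7) at 88.6, 59.3, 67.2 and 87.0 TPM. These genes had close means (76.8 ± 19.1, 75.5 ± 10.2 and 75.5 ± 14.6 TPM, SD, n = 4), and their order changed from library to library. Psma4 (alpha3) and Psma1 (alpha6) followed at 64.3 ± 11.4 and 63.2 ± 9.56 TPM, and Psma5 (alpha5) at 53.3 ± 8.97 TPM. Psma2 (alpha2) was lowest, with 37.3, 25.7, 32.7 and 40.1 TPM, and its values did not overlap those of any other alpha gene except the lowest value of Psma5 (39.9 TPM in replicate 2). The highest alpha mean was 2.26-fold the lowest, and each ring holds a single copy of each of them.

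Psma3 stood apart from the other alpha genes in its transcripts. It lies on chromosome 12 (mm10, 70974621 to 70996347, plus strand). In the deposited transcript values, Psma3-204, a shorter coding form, held 47.5% ± 3.22 of the gene's TPM. Psma3-203, annotated as a retained intron, held 27.2% ± 1.0, and Psma3-201, annotated as a target of nonsense-mediated decay, 18.3% ± 2.45. The second quantification gave 39.9%, 32.2% and 21.7% for the same transcripts. Transcripts not annotated as protein coding thus held 49.0% ± 2.83 of Psma3 in the first quantification and 57.2% in the second, whereas the other 6 alpha genes were at 1.57% or less in the first. Psma3-202 is the only 1 of 9 Psma3 transcripts with the full chain of splice junctions and 255 codons, but it ends further downstream and is 2846 bases long. Of the 7 transcripts that end no further downstream than Psma3-204, 0 have that full chain. Psma3-204 skips the 83-base second exon, and Psma3-201 lacks 5 bases at the start of the third exon, after which the frame reaches a stop codon. The first pair of lines shows that junction on the plus strand (chr12:70978786-70983342 with the intron taken out), with the 5 bases in capitals in Psma3-202 and the annotated stop codon in capitals in Psma3-201. The third line is the second exon (chr12:70978733-70978815), in capitals throughout because Psma3-204 skips all of it.
Psma3-202: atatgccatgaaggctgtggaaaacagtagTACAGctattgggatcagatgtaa
Psma3-201: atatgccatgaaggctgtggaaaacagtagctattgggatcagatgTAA
Psma3-202 second exon: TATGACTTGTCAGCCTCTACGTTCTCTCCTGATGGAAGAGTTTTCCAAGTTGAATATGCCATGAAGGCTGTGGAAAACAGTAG
How far reads from a transcript with the full chain and the short end were divided among the annotated short forms was not tested. The processed pseudogene Gm13835 is identical to Psma3 over 685 aligned bases and was given 1.45, 0.59, 1.51 and 2.87 TPM. The second quantification gave it 3.255, 0.860, 1.485 and 2.167 TPM, beside 37.1, 25.1, 18.6 and 24.7 TPM for Psma3. The split of reads between Gm13835 and Psma3 is therefore uncertain.

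Psma2 was divided between coding transcripts of unequal length. Psma2-201, of 2911 bases and 234 codons, held 53.5% ± 4.35 of its TPM, and Psma2-202, of 1353 bases and 183 codons, held 46.5% ± 4.35. The order of this pair differed between the quantifications, since the second gave Psma2-202 51.2%. Psma2-202 ends further downstream than Psma2-201. Psma2 also overlaps the protein-coding gene AW209491 (2.615 TPM) on the same strand, and how this bears on the split was not tested. For Psma1, Psma4, Psma5, Psma6 and Psma7 a single coding transcript held 97.2% or more in the first quantification.

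The beta ring genes kept here encode subunits without a proteolytic site. Psmb2 (beta4) was at 87.96, 58.9, 72.6 and 93.4 TPM and Psmb4 (beta7) at 72.1, 51.6, 58.2 and 74.0 TPM. Psmb3 (beta3) was at 53.8, 42.8, 44.7 and 58.0 TPM and Psmb1 (beta6) at 36.7, 28.2, 32.7 and 40.1 TPM. In each library the order was Psmb2, Psmb4, Psmb3, Psmb1, and the highest mean was 2.27-fold the lowest. The alpha and beta medians were close, with a ratio of 1.06 to 1.24 in the 4 libraries.

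The Rpt ATPases, encoded by Psmc genes, form the ring that unfolds the substrate and opens the gate. Psmc1 (Rpt2), one of the subunits whose tail docks into the alpha ring, was at 60.5, 41.3, 51.2 and 62.0 TPM. Psmc3 (Rpt5) was at 54.6, 40.3, 46.9 and 49.0 TPM and Psmc5 (Rpt6) at 50.2, 34.4, 41.9 and 52.1 TPM. Psmc2 (Rpt1) and Psmc4 (Rpt3) had nearly equal means, 34.8 ± 5.32 and 34.8 ± 5.66 TPM, which differed by less than their spread. Psmc6 (Rpt4) was lowest in each library, at 29.7, 23.5, 26.1 and 32.3 TPM. The ratio of the alpha ring median to the Rpt median was between 1.60 and 1.70 in each library. Psmc6 was also the ATPase gene whose transcript makeup depended most on the quantification: its non-coding forms held 9.00% ± 2.73 in the first and 31.5% in the second, where the decay target Psmc6-208 alone held 10.7%. Psmc3 overlaps Slc39a13 (12.2 TPM) on the opposite strand. Whether the counting used strand is not given in the sources used here, so reads of the overlap cannot be told apart.

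The Rpn subunits, encoded by Psmd genes, make up the lid and the scaffold of the base. Psmd8 (Rpn12), the last subunit to join the lid, was the highest of all 42 genes, at 85.4, 98.2, 83.2 and 119 TPM. It lies on chromosome 7 (mm10, 29174188 to 29180701, minus strand). It ranked first among the 28 structural subunits in replicates 2, 3 and 4 and had rank 4 in replicate 1. By TPM every other structural subunit was lowest in replicate 2, and Psmd8 was not. Its expected counts, which are not corrected for library depth, were 5066, 8061, 7665 and 8164. Psmd2 (Rpn1), a ubiquitin-receptor scaffold, was next at 58.3, 46.2, 61.2 and 65.7 TPM. Psmd4 (Rpn10), a ubiquitin receptor, was at 46.4, 35.3, 44.6 and 50.6 TPM, and Psmd14 (Rpn11), the deubiquitinase of the lid, at 44.6, 28.5, 35.3 and 38.9 TPM. Psmd7 (Rpn8), its partner, was at 32.5 ± 6.47 TPM. Psmd13 (Rpn9), Psmd3 (Rpn3), Psmd1 (Rpn2), Psmd11 (Rpn6) and Psmd6 (Rpn7) had means from 29.1 down to 23.3 TPM. Psmd12 (Rpn5) was at 24.2, 14.6, 19.1 and 23.7 TPM and ranked last of the 28 in each library. The Rpn median was 29.6, 23.9, 30.4 and 33.2 TPM, and the ratio of the alpha ring median to it was between 2.09 and 2.48.

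Psmd13 was the other structural subunit with a large share of transcripts not annotated as coding, 38.8% ± 3.50 in the first quantification and 39.5% in the second. Most of it was Psmd13-211, an annotated target of nonsense-mediated decay, with 33.3%, 36.2%, 34.2% and 38.4% of the gene's TPM. Psmd13-201, which has 376 codons, held 37.4% ± 5.87. Psmd13-211 skips a 35-base exon, which shifts the frame to a stop codon. The lines below show that junction on the plus strand of chromosome 7, with the skipped exon in capitals in Psmd13-201 (chr7:140883564-140886525, introns taken out) and the annotated stop codon in capitals in Psmd13-211 (chr7:140883564-140886555).
Psmd13-201: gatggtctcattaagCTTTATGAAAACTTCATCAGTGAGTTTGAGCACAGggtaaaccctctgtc
Psmd13-211: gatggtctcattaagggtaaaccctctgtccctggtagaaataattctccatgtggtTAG
Psmd13 overlaps Sirt3 (2.62 TPM) on the opposite strand and the pseudogene Gm15542 (1.502 TPM) on its own.

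Psmd4 was divided between coding forms that differ by 9 bases at the edge of an exon. Psmd4-202, which lacks them, held 63.3% ± 3.48 and Psmd4-201 34.98% ± 3.0, and the second quantification gave 63.8% and 34.6%. The lines show the junction on the minus strand (chr3:95033735-95033947, intron taken out), with the 9 bases that only Psmd4-201 has in capitals.
Psmd4-201: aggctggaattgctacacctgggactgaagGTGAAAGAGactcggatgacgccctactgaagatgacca
Psmd4-202: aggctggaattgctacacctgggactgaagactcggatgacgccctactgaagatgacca
Over the 39 genes of at least 1 TPM, the median share of transcripts not annotated as coding was 1.04%, against 2.67% over 9426 protein-coding genes of that level. These values are of the first quantification, in which the share was above 10% in 2 of the 39, Psma3 and Psmd13, and in 28.2% of the protein-coding genes. In the second it was above 10% in 3 of the 39, with Psmc6 added, and in 36.0% of the protein-coding genes. In 37 of the 39 both quantifications agreed on the leading transcript. The share of all protein-coding genes in which they agreed was not worked out.

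**Figure D2:**
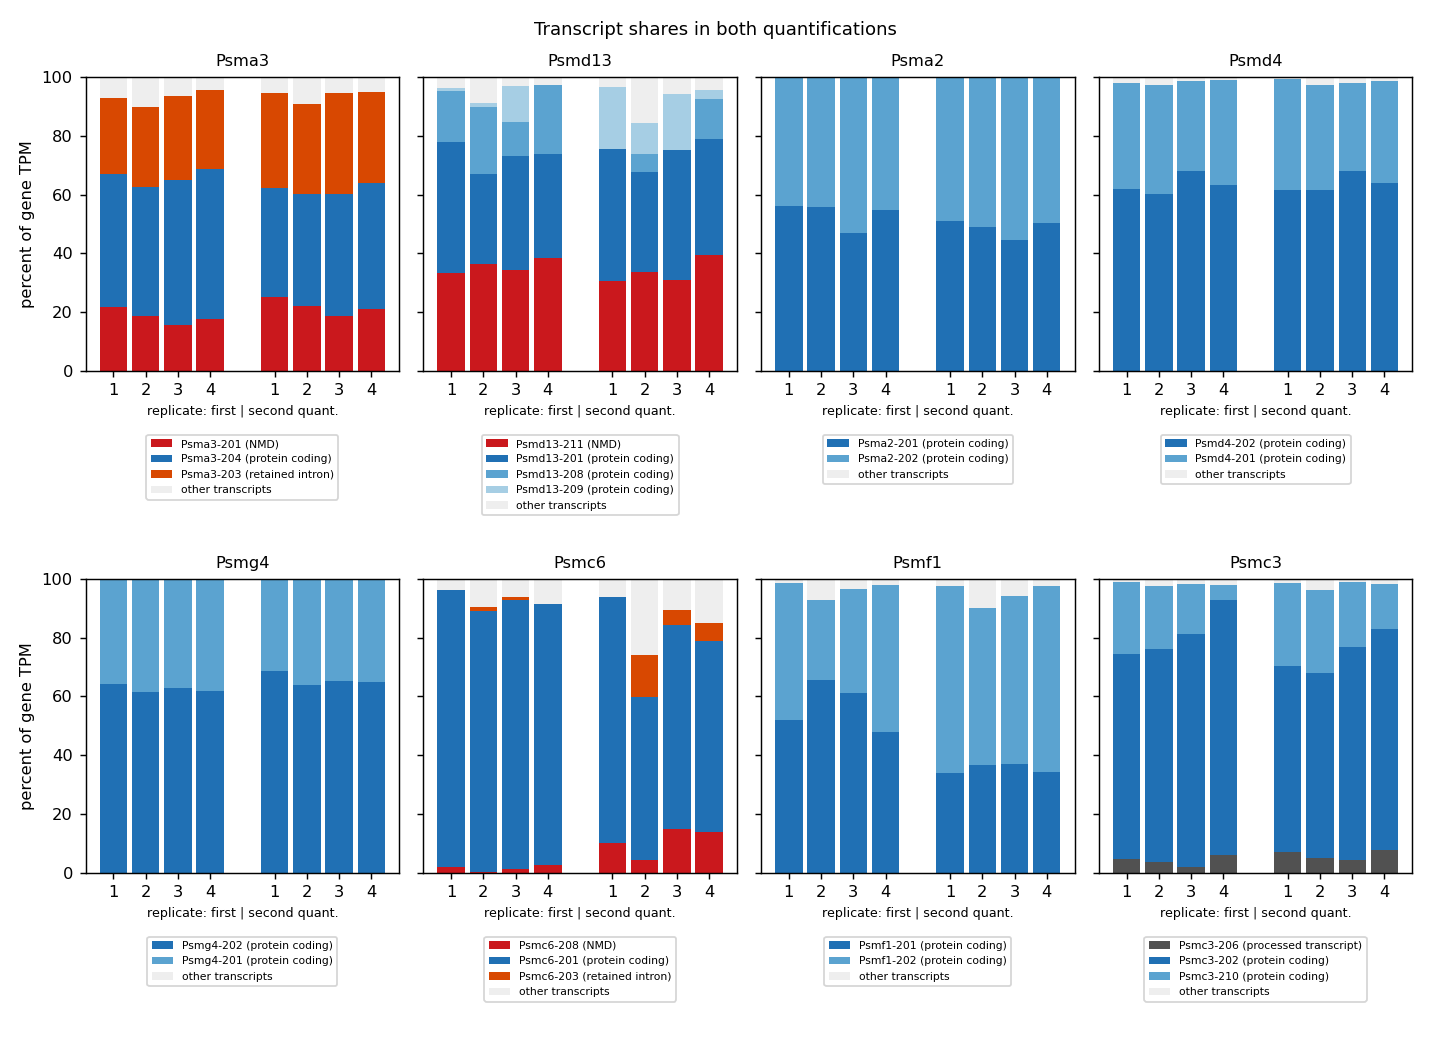
Stacked bars give the percent of a gene's TPM held by each transcript of at least 5% in either quantification, for replicates 1 to 4 in the first (left bars) and second (right bars) quantification. Blue is protein coding, red is a target of nonsense-mediated decay (NMD), orange is a retained intron, dark grey is a processed transcript and light grey is the rest. Psma3 and Psmd13 carry large red or orange parts in all 8 bars.

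The levels were next set against the median structural subunit of the same library, which removes shifts common to all subunits. The subunits enter their own reference, so the comparison describes how evenly they stand. None of the 28 structural subunits differed from that median by more than 2-fold (limma treat, log2 difference of 1, adjusted p below 0.05), and 0 did at an unadjusted p below 0.05. The farthest were Psmd8, at a log2 difference of 1.13 (SE 0.12, adjusted p = 0.182), and Psmd12, at -1.12 (SE 0.07, adjusted p = 0.0818). Psmd8 was above the 2-fold line in replicates 2 and 4 (log2 differences of 1.49 and 1.25) and below it in replicates 1 and 3 (0.82 and 0.94). Psmd12 was past the line in replicates 2, 3 and 4 (-1.25, -1.17 and -1.07) and just short of it in replicate 1 (-0.995). Without replicate 1, Psmd12 passed the test, at -1.16 (adjusted p = 0.0325). With the median of the alpha and beta ring genes as the reference, 7 further genes were called lower: Psmc6, Psmd1, Psmd3, Psmd6, Psmd11, Psmd12 and Psme3, with Psmd12 at -1.66 (adjusted p = 1.91e-05).

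**Figure D3:**
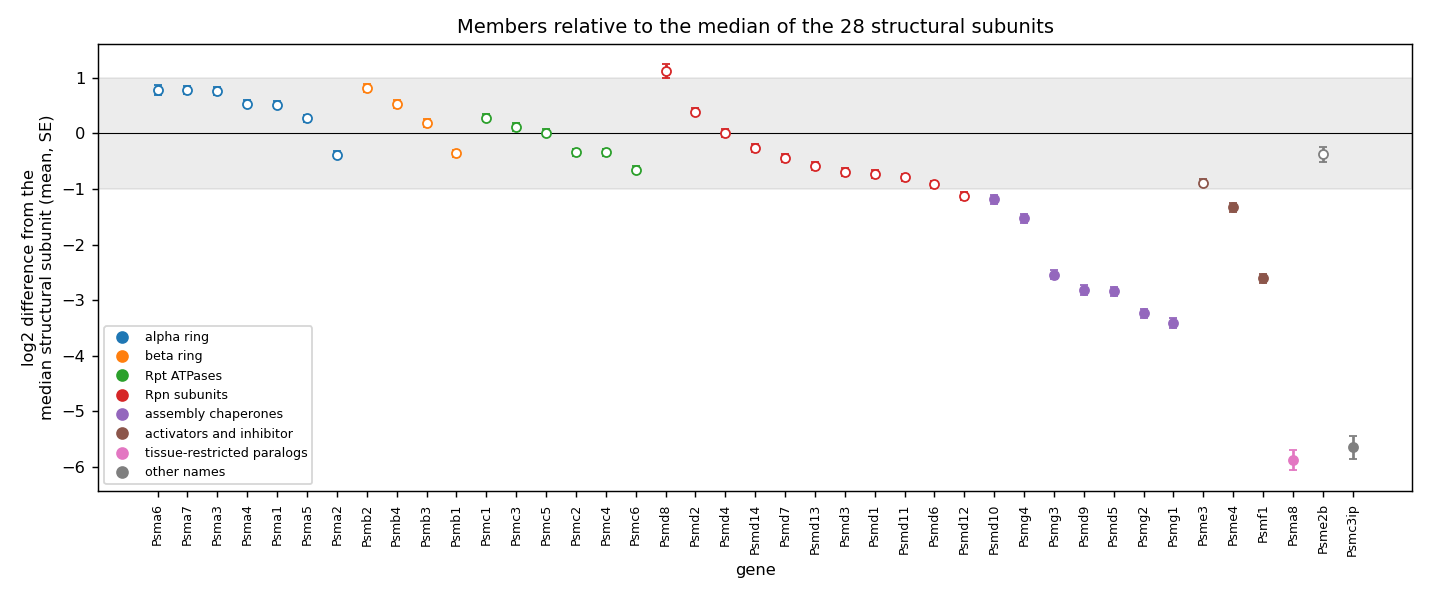
Points give the mean log2 difference of each gene from the median of the 28 structural subunits over 4 libraries, with its standard error; filled points passed the test of a difference of more than 2-fold, and the grey band marks 2-fold in both directions. All 28 structural subunits are open, and all 7 assembly chaperones are filled and low.

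All 7 assembly chaperones were more than 2-fold below the median structural subunit. Of all genes tested 84.1% were called lower and 3.11% higher than that median, so a gene taken without regard to function was also mostly below it; the chaperones' median log2 difference was -2.82 and that of the tested protein-coding genes -3.16. The PAC proteins, encoded by Psmg genes, pair up and hold the alpha ring while it forms. Psmg1 was at 4.71, 3.35, 3.66 and 4.47 TPM, 10.6-fold below the median subunit (adjusted p = 4.42e-08). Its call above 1 TPM was lost in the second quantification as deposited (log2 level 0.45, adjusted p = 0.0504). Psmg2, the partner of Psmg1, was at 4.96, 3.93, 4.38 and 4.89 TPM, 9.46-fold below. Psmg3 was at 8, 6.10, 7.43 and 8.29 TPM and its partner Psmg4 at 17.8, 13.5, 12.6 and 16.8 TPM, 5.83-fold and 2.89-fold below. Within the Psmg3 and Psmg4 pair the levels did not overlap. Across libraries those of Psmg1 and Psmg2 did, but Psmg2 was above Psmg1 in each library.

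The base chaperones hold the Rpt subunits until they join the core. Psmd5, which binds Rpt1, was at 6.23, 4.89, 6.26 and 6.79 TPM, and Psmd9 at 6.05, 5.34, 6.30 and 6.68 TPM, 7.17-fold and 7.08-fold below the median subunit. Psmd10 (gankyrin), which binds Rpt3, was the most abundant chaperone with a Psm symbol, at 22.8, 14.4, 16.9 and 24.1 TPM. It was 2.27-fold below (adjusted p = 0.0307), and this call was lost without replicate 2 (adjusted p = 0.101), without replicate 3 (adjusted p = 0.131) and with a pseudocount of 1 (adjusted p = 0.0686). Psmg1 rests on 195 to 235 expected counts per library and Psmg4 on 268 to 314, against 1442 or more for each structural subunit. Pomp, the chaperone of the beta ring, does not carry a Psm symbol and stood at 95.0 ± 14.04 TPM, above 27 of the 28 structural subunits.

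Psmg4 had coding forms with and without a 76-base exon. Psmg4-202, with the exon and 123 codons, held 62.6% ± 1.31 of its TPM and Psmg4-201, with 82 codons, 37.4% ± 1.31. The second quantification gave 65.7% and 34.3%. The exon is in capitals in the line below (plus strand, chr13:34163235-34177995, introns taken out).
Psmg4-202: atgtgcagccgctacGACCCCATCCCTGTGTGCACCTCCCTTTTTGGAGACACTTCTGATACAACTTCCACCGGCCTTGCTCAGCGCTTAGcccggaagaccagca
Psmd5, Psmd9 and Psmf1 also had a second coding transcript. Psmd5-202 held 29.0% ± 4.48, Psmd9-204 33.1% ± 6.61 and Psmf1-202 39.8% ± 10.4. Each held a larger share in the second quantification (38.2%, 44.6% and 59.5%), which for Psmf1 changed the leading transcript.

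Of the activators and the inhibitor, Psme3 (PA28gamma), a nuclear cap that opens the core without ubiquitin, was at 27.9, 18.8, 23.2 and 25.2 TPM. It was not called more than 2-fold from the median subunit (log2 difference -0.89, SE 0.07). Psme4 (PA200), a large single-chain activator linked to histone degradation, was at 17.2, 12.9, 18.6 and 21.6 TPM, 2.52-fold below (adjusted p = 0.00247). Psmf1 (PI31), named as an inhibitor of the core and also an adaptor for its transport, was at 8.08, 5.55, 6.32 and 8.83 TPM, 6.09-fold below (adjusted p = 2.02e-07).

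The paralogs that replace a core subunit elsewhere were at or near 0. Psmb11, the beta subunit of thymic epithelium, was listed at 0 TPM in each library of the first quantification. It had 1 expected count in all, in replicate 3. In the other libraries the upper limit that a count of 0 allows is 3 counts. That limit ranged from 0.0701 CPM (counts scaled to the library total) in replicate 4 to 0.0978 CPM in replicate 1. These limits are of the first quantification only. The second gave Psmb11 0.00189, 0.0352, 0.00556 and 0.0127 TPM in replicates 1 to 4. Psma8, the testis form of Psma7, was at 0.85, 0.57, 0.68 and 0.50 TPM from 33 to 55 expected counts, and 59.2-fold below the median subunit. It was called below 1 TPM (adjusted p = 0.0136), but on a scale of protein-coding genes alone, where 1 TPM is a lower bar, it was above (log2 level 0.99, adjusted p = 0.00167). The call below 1 TPM was also lost with the posterior mean TPM (log2 level -0.13, adjusted p = 0.572), without replicate 2 (adjusted p = 0.0559) and without replicate 4 (adjusted p = 0.0592). Psmc3ip was at 1.39, 0.56, 0.67 and 0.65 TPM and passed neither test of 1 TPM in the first quantification as deposited (adjusted p = 0.201 for below). It was called below 1 TPM without replicate 1 (log2 level -0.60, adjusted p = 0.0121) and in the second quantification as deposited (-1.54, adjusted p = 0.00111), and above it on the scale of protein-coding genes (1.24, adjusted p = 0.00107). Psmc3ip overlaps Mlx (15.4 TPM) on the opposite strand, and, as for Psmc3, reads of the overlap cannot be told apart.

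Psme2b is a single-exon gene on chromosome 11 (mm10, 48945354 to 48946190, minus strand), and its 717 coding bases differ from those of Psme2 (chromosome 14) at 5 positions, an identity of 99.3%. The stretch below, coding base 424 onwards in both, holds 3 of the 5 differences, in capitals (Psme2b on the minus strand of chr11:48945576-48945695, Psme2 on the minus strand of chr14:55588049-55588449 with introns taken out).
Psme2b: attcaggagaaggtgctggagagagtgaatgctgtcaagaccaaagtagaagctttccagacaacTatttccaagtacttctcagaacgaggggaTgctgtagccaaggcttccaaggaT
Psme2: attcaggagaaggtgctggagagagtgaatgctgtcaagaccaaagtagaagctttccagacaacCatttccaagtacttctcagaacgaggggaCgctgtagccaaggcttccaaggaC
Psme2b was given 26.2, 27.4, 37.8 and 46.7 TPM, the only member lowest in replicate 1. Psme2, which encodes an activator of antigen processing, was at 277 ± 65.8 TPM, and 9930111J21Rik1, which overlaps Psme2b on the same strand, at 38.8 TPM. With so few positions to separate them, how many Psme2b reads belong to Psme2 or to the overlapping gene cannot be told from these files.

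Apart from Psme2b, the members differed little between the quantifications once both were put on the same scale. As deposited, the second quantification gave protein-coding genes only 8.82% to 13.98% of TPM, and the members' median log2 difference (second minus first) was -1.20, -1.20, -1.78 and -1.75 in replicates 1 to 4. Of 39 members compared, 0 passed the test of a difference of more than 2-fold, against 4.28% of 10329 genes called lower (limma treat). At an unadjusted p below 0.05 it was 28 of the 39. The standard error was 0.258 for each of the 39, a value shared by all genes. These p-values therefore do not measure a member's own spread between libraries. The count past the adjusted threshold was 14 with a pseudocount of 1 and 28 with the posterior mean TPM. With both scaled to protein-coding genes, 2.90% of genes were called and again 0 members, also at an unadjusted p below 0.05. The members then lay between -0.13 (Psmd2) and 0.70 (Psme2b), and 38 of 39 were within 0.25 of 0. Their median was -0.02, and that of all genes compared was 0.008. The share of all genes within 0.25 was not worked out. Psmc6 (0.22, SE 0.07), Psmf1 (0.22, SE 0.03), Psmd5 (0.17, SE 0.03), Psmd9 (0.16, SE 0.03) and Psme3 (0.15, SE 0.02) followed Psme2b.

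**Figure D4:**
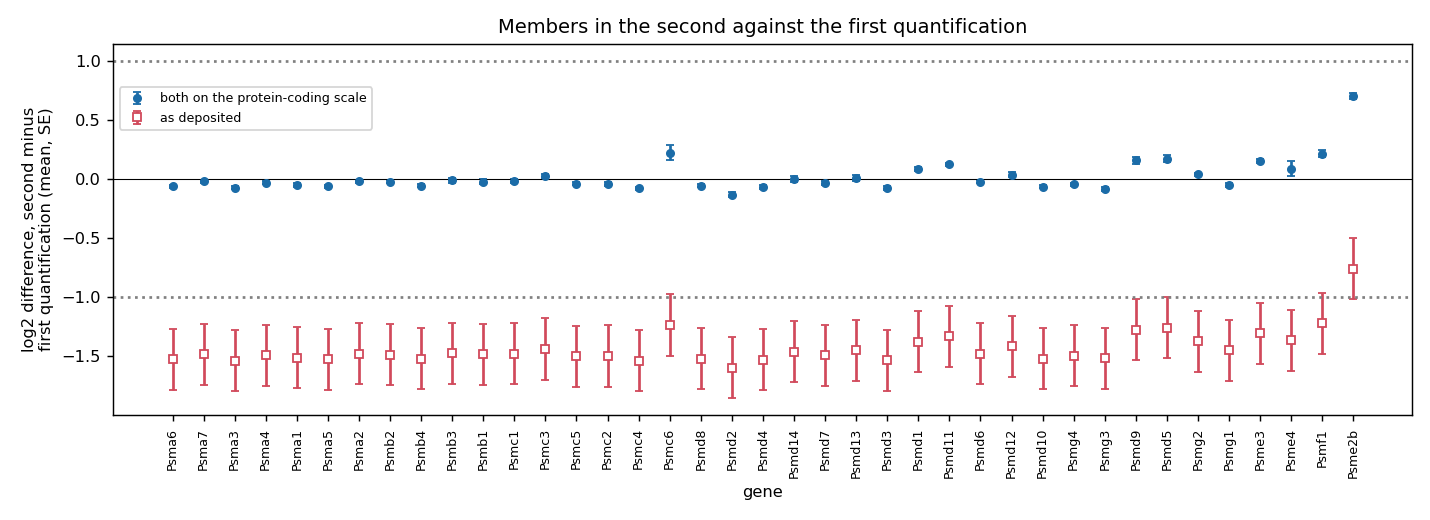
Points give the mean log2 difference of the second from the first quantification over 4 libraries, with standard errors, as deposited (open squares) and with both scaled to protein-coding genes (filled circles); dotted lines mark 2-fold. The open squares all carry the same standard error, 0.258, which is shared by all genes. On the common scale 38 of 39 genes lie within 0.25 of 0, and Psme2b is at 0.70. The median over all genes compared was 0.008.

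The estimated spread between libraries was ordinary for genes of this level. The biological coefficient of variation (edgeR, expected counts) of the structural subunits ran from 12.0% (Psmd4) to 18.1% (Psma6), with a median of 13.7%. Of the 28, 14 lay under the median of their expression bin, and their median percentile was 49.3. The estimates are drawn toward the trend of genes of similar level, so nearness to the bin median is partly built in. Over all members the median was 14.2%, and it was 11.4% without replicate 1. Most members were high or low in the same libraries. As deposited TPM, 37 of 41 members were lowest in replicate 2, the library with the smallest protein-coding share. With TPM rescaled to protein-coding genes, 12 of 41 were lowest there and 17 in replicate 4, and 30 were highest in replicate 1. For TPM, deposited or rescaled, the share over all genes was not worked out, so those counts cannot be set against genes in general. As TMM-scaled CPM, 36 of 41 (87.8%) were highest in replicate 1, against 36.9% of tested protein-coding genes and 45.7% of the 2406 such genes of at least 20 TPM. On that scale 27 of 41 (65.9%) were lowest in replicate 2, against 29.2% of tested protein-coding genes. The structural subunits' median deviation from their mean was 0.18 (log2) in replicate 1 and -0.15, -0.06 and close to 0 in the others. Malat1 was lowest in replicate 1 and highest in replicate 2; its part in this order, and that of fraction purity or RNA quality, was not tested.

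Other genes of the proteasome pathway were mostly above 1 TPM too. Over all tested genes 58.2% were above 1 TPM and 84.1% more than 2-fold below the median subunit, and over tested protein-coding genes 71.2% and 80.4%. Of 8 other proteasome proteins 8 were above 1 TPM and 5 were more than 2-fold below the median subunit, among them the deubiquitinases Usp14 (17.6 ± 2.39 TPM) and Uchl5 (11.6 ± 2.03 TPM); the ubiquitin receptor Adrm1 (27.9 ± 3.96 TPM) was not. Of 10 shuttle and p97 genes 10 were above 1 TPM and 5 were more than 2-fold below the median subunit, with Vcp, the p97 ATPase, at 64.7 ± 12.1 TPM. Of 8 genes around NRF1, the factor that raises proteasome genes when the proteasome is blocked, 7 were above 1 TPM; Nfe2l1, which encodes it, was at 63.1 ± 14.7 TPM.

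Promoter windows of 300 bases (250 before and 50 after the start, RefSeq, GRCm38.p6) were found for 35 of the 42 genes and searched on both strands. A gene can have more than 1 window and counted if any of them matched. Shares of genes are therefore not in the same unit as shares of single windows. The binding core of ETS factors (CCGGAAG) was in 15 of the 35 (42.9%), against 20.4% of 9869 tested protein-coding genes and 8.86% of all 32851 windows. By role, it was in 6 of 9 Rpn genes, 3 of 5 Rpt genes, 1 of 7 alpha ring genes and 0 of 2 beta ring genes. Among the activators and the inhibitor it was in 2 of 3, and among the assembly chaperones in 2 of 6. The 15 also include Psmc3ip, which is not a proteasome protein, whereas Psme2b and Psmb11 had no match. The core of the antioxidant response element that NRF1 and NRF2 bind (TGACNNNGC) was in 4 (11.4%), against 17.0% and 12.4%. The CCAAT box was in 40%, against 43.0% and 37.4%, and the GC box (GGGCGG) in 54.3%, against 67.3% and 35.7%. The YY1 core (AAGATGGC) was in 2 genes (5.71%), against 5.33% of tested protein-coding genes and 2.75% of all windows. The E-box (CACGTG) was in 3 (8.57%), against 11.7% and 7.15%, and the cAMP response element (TGACGTCA) in 0, against 3.50% and 1.79%. Matches to different motifs can share bases, and a match is a run of letters, not a measured site. The 4 matches to the antioxidant response core, at bases -227, -247, -31 and -7 from the start, are shown with up to 10 flanking bases and the match in capitals (all on the plus strand as printed; chr14:45329587-45329615, chr11:107479278-107479299, chr5:123228149-123228177 and chr11:30771758-30771786).
Psmc6: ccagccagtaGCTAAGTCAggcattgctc
Psmd12: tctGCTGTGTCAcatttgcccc
Psmd9: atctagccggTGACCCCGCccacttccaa
Psme4: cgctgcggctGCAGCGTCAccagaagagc
Psmc6, Psmd12 and Psme4 also held the ETS core. Of these, Psmc6 is the gene whose pair of matches lies wholly before the first annotated base, and its upstream window (chr14:45329574-45329787, plus strand, matches in capitals) is printed for that reason.
Psmc6 upstream: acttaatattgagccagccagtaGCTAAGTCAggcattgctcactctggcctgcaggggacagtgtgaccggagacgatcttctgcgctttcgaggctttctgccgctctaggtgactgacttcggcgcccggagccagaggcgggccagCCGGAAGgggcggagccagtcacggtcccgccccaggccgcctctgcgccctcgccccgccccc
The 4 genes with the antioxidant response core, Psmc6, Psmd12, Psme4 and Psmd9, had mean levels of 27.9, 20.4, 17.6 and 6.09 TPM.

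**Figure D5:**
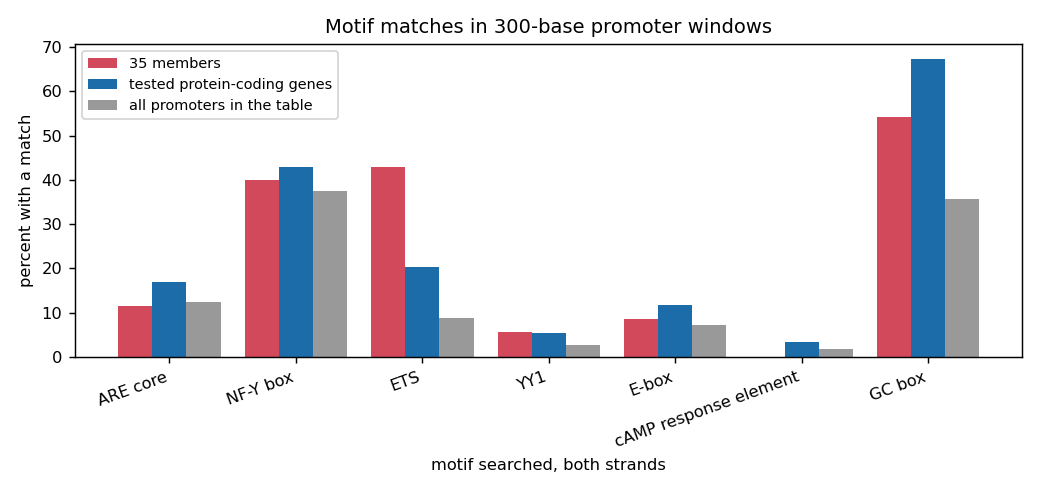
Bars give the percent of genes or windows with at least 1 match to each motif in a 300-base promoter window: the 35 members (red), the tested protein-coding genes (blue) and all windows in the table (grey). NF-Y box stands for the CCAAT box and ARE for the antioxidant response element. A gene counts if any of its windows matches, whereas grey bars count single windows. The ETS core shows the widest gap between members and tested genes, 42.9% against 20.4%, beside 8.86% of single windows.

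Several members start head to head with another gene. A start on the opposite strand at most 1000 bases upstream was found for 7 of 42 (16.7%), against 10.6% of tested protein-coding genes. Pairs whose starts lie past each other, so that the genes overlap, were not counted. The pairs were Psmc2 with Dnajc2 (32 bases apart), Psma2 with Mrpl32 (75), Psmc5 with Ftsj3 (75), Psma7 with Ss18l1 (76), Psmb1 with Tbp (137), Psmd10 with Atg4a (179) and Psmg2 with Cep76 (263). The partners' levels ranged from 0.82 TPM (Ss18l1) to 23.5 TPM (Dnajc2). Pseudogenes with at least 200 aligned bases at 90% identity were found for 11 of the 42 genes (26.2%), 23 in all, against 12.4% of tested protein-coding genes. Apart from Gm13835 their mean levels in the first quantification were 0.338 TPM or less, so few reads were assigned to them. The highest single value was 0.57 TPM (Gm8394 in replicate 4).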

How the data were processed

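RNA-seq of 4 libraries of 1 group was used. Per the file headers, the authors deposited expected counts, TPM and posterior mean TPM for each gene and transcript (first quantification), and estimated counts and TPM for each transcript (second). They used mm10 and annotation M21, per the labels and the notes deposited with each library. Aligner and counting tools: not given in the sources used here. Genes and lists were chosen with earlier results of these data known, and the motifs, transcripts and neighbours looked at after values were seen. All members are named.

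Genes with at least 10 summed expected counts were tested in R 4.3.3 with limma 3.58.1 on log2(TPM + 0.1), against 1 TPM or, with treat at a log2 difference of 1, against the median of the 28 structural subunits, with Benjamini-Hochberg adjustment over all genes. The quantifications were compared in each library, over genes averaging 1 TPM or more in either. Spread came from edgeR 4.0.16 on rounded expected counts, with 20 expression bins, and alternatively DESeq2 1.42.0. Fits were tested on simulated data. Pseudogenes were aligned with BLAST 2.17.0. Sequences came from the M21 transcripts and RefSeq promoters. Limits from counts of 0 cover counting error only.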

Additional observations from a re-analysis of the deposited data

Results flagged for a closer look

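In a group of 4 libraries a value was marked when its gap to the nearest other library exceeded the critical share of the whole range in Dixon's test at 95%. Chance marks about 1 in 20 such groups, and 4 of the 82 looked at here were marked. The TPM of Psma5 in replicate 2 (39.9, against 56.5 to 58.4 in the others) had a gap of 0.898 of the range. The TPM of Psmd1 in replicate 2 (20.5, against 27.8 to 28.8) had a gap of 0.872. The TPM of Psmc3ip in replicate 1 (1.39, against 0.56 to 0.67) had a gap of 0.867. The log2 difference of Psmb4 from the median structural subunit in replicate 3 (0.43, against 0.57 to 0.58) had a gap of 0.920.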

How the results depend on the processing

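No paired analysis was possible because there is 1 group. The number of members above 1 TPM was 38 to 41 under every alternative. The number more than 2-fold from the median structural subunit was 11 and stayed at 10 to 12, leaving out replicates included (10 to 12), except with the alpha and beta ring reference, which gave 18. The number apart between the quantifications was 0, also without each replicate (0 to 0), but 14 with a pseudocount of 1 and 28 with the posterior mean TPM. The median spread was 14.2% and 11.4% to 15.2% without each replicate. The median share of transcripts not annotated as coding was 1.04% and 0.731% to 1.34% without each replicate, and 1.43% in the second quantification.

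Signs turned in 22 single values, and only that of Psma8 on the protein-coding scale passed its test in both settings. Above instead of below 1 TPM on the protein-coding scale were Psma8 (log2 0.99 in the first and 0.93 in the second quantification) and Psmc3ip (1.24 and 1.21). Against the alpha and beta ring reference Psma1 (-0.021), Psma4 (-0.0028), Psma5 (-0.27), Psmb3 (-0.36), Psmb4 (-0.0066), Psmc1 (-0.26), Psmc3 (-0.42), Psmc5 (-0.53), Psmd2 (-0.15) and Psmd4 (-0.53) turned negative. Psmd4 was at -0.017 in the second quantification on either scale. Leaving out each replicate gave -0.0044 to 0.029 for Psmd4 and -0.0022 to 0.034 for Psmc5. Psme2b was at 0.37 in the second quantification on either scale. Scaled to protein-coding genes, the difference between quantifications was 0.70 for Psme2b and 0.22 for Psmc6. The cause was not tested. Psma8, Psmc3ip and Psmb11 had the fewest counts of the members, and Psmb11 was not tested.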
